A study of Homo sapiens with 4 samples.

Results

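Transforming growth factor beta (TGF-beta) signalling was examined through 9 genes chosen by name, namely the ligands TGFB1 and TGFB2, the receptors TGFBR1 and TGFBR2, the signal transducer SMAD3, and the inhibitors and targets SMAD7, SKIL, GADD45B and PMEPA1. All 9 were found by Ensembl identifier among the 20263 genes of the deposited count table. HCT116, an established human colon cancer line, had been grown for 24 h in medium with 10% serum, either in the presence of N_12 or in that of DMSO as the vehicle, before mRNA sequencing. There were 2 libraries with N_12 (41717938 and 39865327 counts in replicates 1 and 2) and 2 with DMSO (31120459 and 29769568 counts). The series title calls N_12 a derivative of nilotinib, a kinase inhibitor, and names the epithelial to mesenchymal transition (EMT). The dose of N_12 is not given in the labels, their treatment tag for the N_12 libraries carries another code (HJJ_3_5), and they name no added TGF-beta. Because nothing says that replicates came from separate cultures, p-values measure only the spread between these libraries, which may be technical.

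In the pathway, a TGF-beta dimer released from its latent complex binds the type II receptor TGFBR2, which activates the type I receptor TGFBR1. TGFBR1 phosphorylates SMAD2 and SMAD3, which enter the nucleus with SMAD4 and switch genes on or off with other transcription factors. Several of the genes switched on feed back on the pathway: SMAD7 blocks and helps to degrade the type I receptor, SKIL represses SMAD-bound genes, and PMEPA1 holds SMAD2 and SMAD3 back from the receptor. In colon epithelium the pathway restrains growth and can drive EMT, and colon cancers with defective mismatch repair often lose it through a frameshift in TGFBR2. HCT116 is such a line, and its TGFBR2 is mutant. The known site of that frameshift is a run of adenines in the coding sequence, shown from the reference transcript TGFBR2-201 (GENCODE release 29, chromosome 3) with the run in capitals. These are the bases in the reference, and the count table does not show which alleles the cells carried.
TGFBR2: attatgaaggAAAAAAAAAAgcctggtgag
The run is 10 adenines long, spans coding bases 374 to 383 counted from the A of the start codon, and lies in codons 125 to 128 of 567.

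Of the 9 genes only GADD45B, a stress-induced activator of p38 kinase signalling and a target of TGF-beta, was called lower in cells given N_12. It stood at 22.5 ± 0.745 CPM (counts scaled to library size) with N_12 and 48.5 ± 5.50 CPM with DMSO (mean ± SD, n = 2 each), a 2.15-fold fall. PMEPA1 had a difference of the same size but missed the threshold, and SMAD7 and SKIL were further genes with lower means. Both receptors had differences near 0. The threshold was an adjusted p of 0.05 in the quasi-likelihood test of edgeR, with Benjamini-Hochberg adjustment over the 14105 genes with enough counts to be tested, which included all 9. Thus 1 of 9 members was called lower and 0 were called higher, against 1.43% of all tested genes called lower and 0.822% called higher. At an unadjusted p under 0.05, 3 of the 9 were lower, against 10.8% of all tested genes, and 0 were higher, against 11% of all tested genes. For 6 of the 9 each N_12 library was lower than each DMSO library, against 26.8% of all tested genes, and for 0 of the 9 each was higher, against 27.9%. The log2 fold change was negative for 8 of the 9, against 49% of all tested genes. GADD45B alone was also called by limma-voom (0.929% of all tested genes called in either direction), while DESeq2 (8.68%) added PMEPA1 and leaving out DMSO replicate 1 (1.63%) added SKIL. A stricter filter on low counts (3.68%) also added PMEPA1, which passed that filter only through its DMSO libraries, so that this call lends it no support. The median log2 fold change of N_12 over DMSO was -0.57 over the 9 members and 0.01 over all tested genes. With 9 genes picked for a shared pathway these figures describe the list and do not set it apart.

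**Figure D1:**
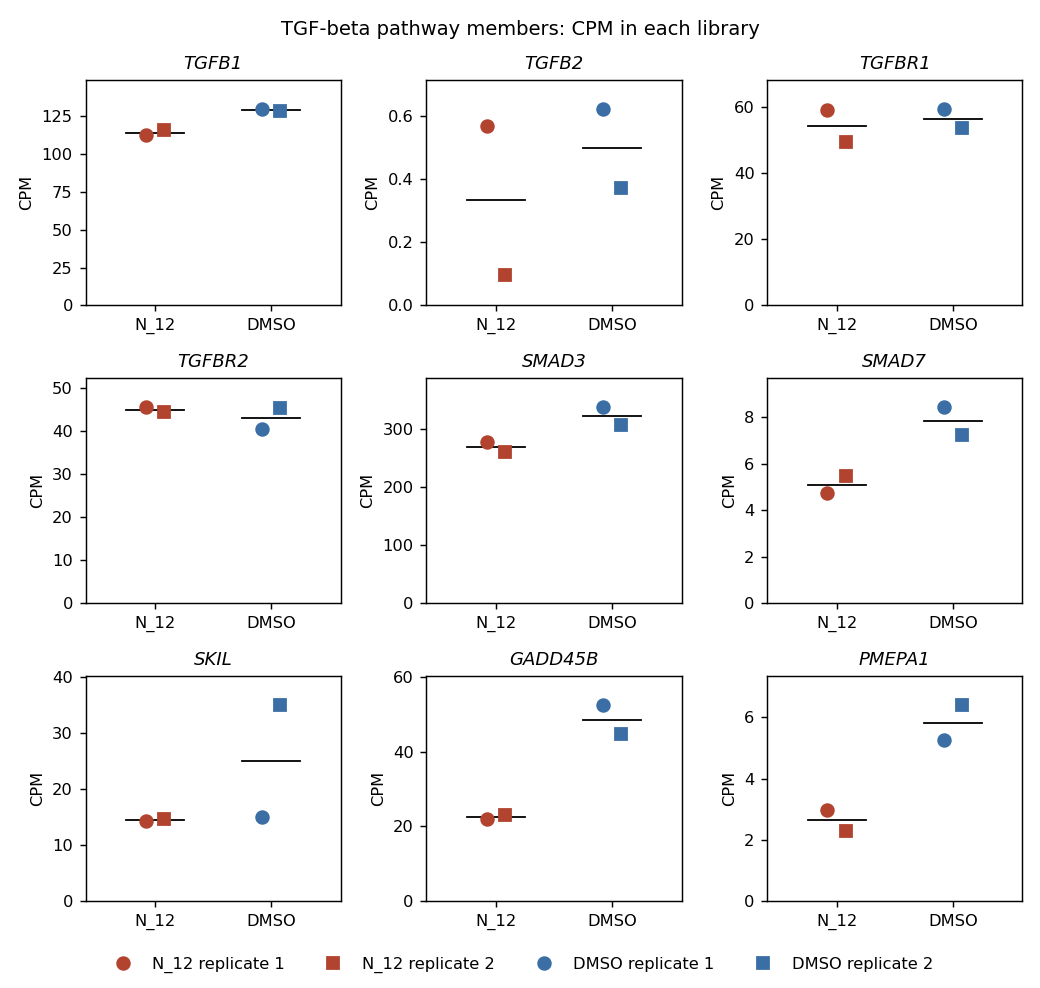
CPM (linear axes from 0) of each of the 9 genes in every library, N_12 left and DMSO right, with circles for replicate 1, squares for replicate 2 and a bar at the mean. GADD45B, PMEPA1 and SMAD7 have both N_12 libraries clearly below both DMSO libraries, while the DMSO libraries of SKIL stand far apart at 15.1 and 35.0 CPM.

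Of the ligands, TGFB1, the main TGF-beta of epithelia and carcinomas, had 113 and 116 CPM in the N_12 libraries and 130 and 129 CPM in the DMSO libraries. Its libraries did not overlap, but the log2 fold change of -0.18 (95% interval -0.47 to 0.11) was not called (adjusted p = 0.446). Of its exon bases 6.64% lie opposite those of HNRNPUL1. TGFB2, a ligand prominent in development, was barely expressed, with 24 and 4 counts in the N_12 libraries and 19 and 11 counts in the DMSO libraries. Scaled to library size these were 0.570 and 0.0981 CPM with N_12 and 0.623 and 0.374 CPM with DMSO, so that the groups overlapped, and the interval of the log2 fold change ran from -2.39 to 1.26. Of its exon bases 26.6% are shared with TGFB2-OT1 on the same strand, so some of these few counts could belong to that transcript. TGFB3, the ligand outside the 9, averaged 1.78 ± 0.129 CPM with N_12 and 1.85 ± 0.0231 CPM with DMSO.

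Neither receptor was called. TGFBR2, the ligand-binding receptor whose coding run is shown above, had 45.6 and 44.5 CPM in the N_12 libraries and 40.6 and 45.4 CPM in the DMSO libraries. The groups overlapped, and the log2 fold change was 0.07 (-0.28 to 0.42, adjusted p = 0.837). TGFBR1, the kinase that phosphorylates SMAD2 and SMAD3, had 59.2 and 49.4 CPM in the N_12 libraries and 59.4 and 53.6 CPM in the DMSO libraries. It overlapped as well (log2 fold change -0.06, -0.43 to 0.32, adjusted p = 0.872). For both genes the interval leaves out a doubling or a halving of the mRNA, and neither is thereby shown to be unchanged. The co-receptor TGFBR3, which presents ligand to TGFBR2, was not called at a log2 fold change of -0.37 (-0.73 to -0.01, adjusted p = 0.222).

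SMAD3, the transducer among the 9, had 278 and 260 CPM in the N_12 libraries and 337 and 307 CPM in the DMSO libraries. Every N_12 library was below every DMSO library, by a small margin, and the log2 fold change of -0.26 (-0.56 to 0.04) was not called (adjusted p = 0.287). SMAD2, the other transducer of TGF-beta and activin, averaged 68.7 ± 0.637 CPM with N_12 and 102 ± 11.2 CPM with DMSO (log2 fold change -0.57, SE 0.14, adjusted p = 0.0862). The shared partner SMAD4 differed by -0.29 (-0.62 to 0.03, adjusted p = 0.271). On the branch of bone morphogenetic proteins (BMPs), SMAD1 had 16.4 and 15.9 CPM in the N_12 libraries and 10.1 and 10.2 CPM in the DMSO libraries, whereas SMAD9 had 3.85 and 3.24 CPM in the N_12 libraries and 6.49 and 6.29 CPM in the DMSO libraries. SMAD1 therefore stood higher with N_12 (log2 fold change 0.67) and SMAD9 lower (-0.85), without overlap, but neither was called by edgeR (adjusted p = 0.0849 and 0.0807). Of the 6 SMAD genes outside the 9, edgeR called 0, against 2.25% of all tested genes. At an unadjusted p under 0.05, 1 was higher and 3 were lower, against 11% and 10.8% of all tested genes. Of the 6, 5 had negative log2 fold changes, against 49% of all tested genes. DESeq2 called SMAD2 and SMAD9 lower and SMAD1 higher (adjusted p = 0.0113, 0.0456 and 0.0229), and also SMAD5 lower, which is named for that call alone. With correction for GC content and length edgeR called SMAD2 and SMAD9 lower (adjusted p = 0.0309 and 0.0442). Over all tested genes DESeq2 called 8.68% and the corrected edgeR fit 6.4%, in either direction.

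SMAD7, the inhibitory SMAD that shuts the receptor down, had 4.72 and 5.47 CPM in the N_12 libraries and 8.43 and 7.21 CPM in the DMSO libraries. The groups were apart, and the interval of the log2 fold change lay below 0 (-0.62, -1.09 to -0.14), yet over all genes the adjusted p was 0.144. SMAD6, the inhibitory SMAD of the BMP branch, differed by -0.42 (-0.86 to 0.02, adjusted p = 0.253). BAMBI, a decoy receptor without a kinase, averaged 7.51 ± 0.106 CPM with N_12 and 11.9 ± 0.448 CPM with DMSO, without a call by edgeR (adjusted p = 0.0947) but with one by DESeq2 (adjusted p = 0.0384).

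SKIL, a repressor of SMAD target genes that is degraded when the pathway fires, had 14.4 and 14.7 CPM in the N_12 libraries and 15.1 and 35.0 CPM in the DMSO libraries. Its lower mean with N_12 rests on DMSO replicate 2 alone. With all libraries the log2 fold change was -0.78 (-1.93 to 0.36, adjusted p = 0.368), without DMSO replicate 2 it was -0.05 (adjusted p = 0.951), and without DMSO replicate 1 it was -1.26 and called (adjusted p = 0.0142). With 0.5 CPM added to each value, the DMSO libraries differed 2.28-fold, a gap reached between them by 1.24% of the 11235 tested genes averaging 5 CPM or more. SKI, its paralog and fellow repressor, had 108 CPM in each N_12 library and 84.3 and 81.0 CPM in the DMSO libraries, a log2 fold change of 0.38 that was not called (adjusted p = 0.150).

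PMEPA1, the membrane protein that keeps SMAD2 and SMAD3 from the receptor, had 2.99 and 2.28 CPM in the N_12 libraries and 5.25 and 6.39 CPM in the DMSO libraries. The N_12 libraries both lay lower, with a log2 fold change of -1.14 (SE 0.24, -1.71 to -0.58), and the adjusted p of 0.0580 was just over the threshold. DESeq2 called PMEPA1 (adjusted p = 0.0147). Of its exon bases 6.10% are opposite those of NKILA. Since the strand setting of the counting is not given, reads of the pair cannot be told apart over those bases. LDLRAD4, the relative of PMEPA1 that also binds SMAD2 and SMAD3, had 1.54 and 1.62 CPM in the N_12 libraries and 2.75 and 2.76 CPM in the DMSO libraries (log2 fold change -0.80, adjusted p = 0.138).

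For GADD45B the single libraries gave 22.0 and 23.1 CPM with N_12 and 52.4 and 44.6 CPM with DMSO. The groups were far apart next to their spread, and the log2 fold change was -1.11 (SE 0.16, -1.48 to -0.73, adjusted p = 0.0207). It was called lower by limma-voom and DESeq2 too (adjusted p = 0.0446 and 1.86e-07). Without N_12 replicate 1 or replicate 2 the call ended (adjusted p = 0.131 and 0.146), as did those of all other genes, while the log2 fold change stayed at -1.09 and -1.14. In bulk RNA a lower level per cell and fewer cells with the transcript cannot be told apart. Its paralogs were not called: GADD45A, a p53 target, had 128 and 136 CPM in the N_12 libraries and 151 and 125 CPM in the DMSO libraries, overlapping (log2 fold change -0.07, -0.41 to 0.27), and GADD45G had 17 and 16 counts with N_12 and 21 and 14 counts with DMSO.

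**Figure D2:**
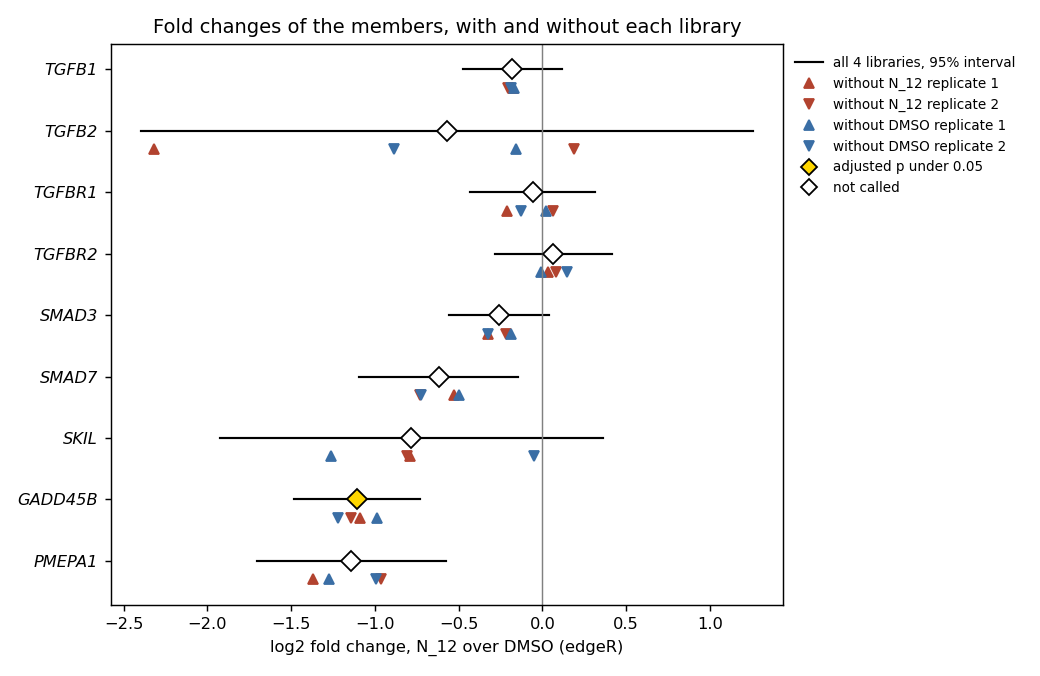
Log2 fold change of N_12 over DMSO by edgeR for the 9 genes (diamonds, gold where called) with the 95% interval, and below each the value when 1 library was left out (red triangles for N_12, blue for DMSO). The values of GADD45B stay between -1.22 and -0.98, while those of SKIL run from -1.26 to -0.05 and those of TGFB2 from -2.32 to 0.19.

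Over the 4 libraries, the genes whose centred log2 CPM lay closest to that of GADD45B, among 11216 candidates averaging 5 CPM or more, were SDC4, INSIG1 and GPI, at Euclidean distances of 0.0124, 0.0474 and 0.0602. SDC4, for example, had 303 and 319 CPM in the N_12 libraries and 721 and 611 CPM in the DMSO libraries. With only 4 libraries many genes lie close to any given one.

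Levels of different genes were compared as CPM per kilobase of exon. The length was the union of all annotated exons of a gene, which can exceed that of the transcripts expressed. The order below holds for that length, and close neighbours could change places with another. The order was the same in both groups, with TGFB1 highest (35.3 with N_12 and 39.9 with DMSO, means of 2 libraries in CPM per kilobase), then SMAD3 (29.5 and 35.4), GADD45B (10.5 and 22.7), TGFBR2 (9.57 and 9.14), TGFBR1 (7.94 and 8.26), SKIL (1.87 and 3.22), SMAD7 (1.01 and 1.55), PMEPA1 (0.469 and 1.04) and TGFB2 (0.0648 and 0.0968). Neighbours in this order did not overlap between libraries, except TGFBR2 and TGFBR1 in the DMSO libraries. The receptors thus lay below TGFB1 and SMAD3 and above the inhibitors SKIL, SMAD7 and PMEPA1. GADD45B stood at more than the level of TGFBR2 in both groups, but came much closer to it with N_12.

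**Figure D3:**
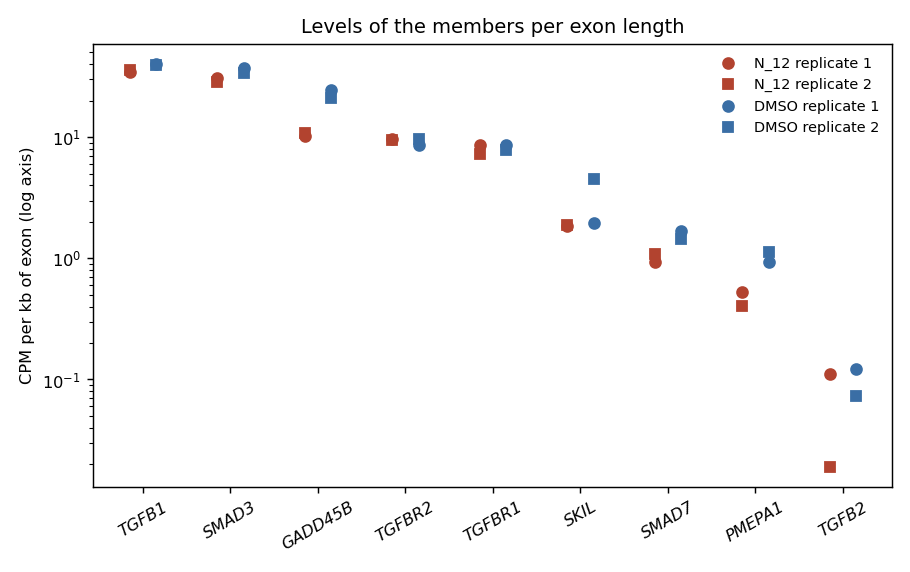
CPM per kilobase of exon (log axis) of the 9 genes in every library, in the order of their DMSO means, with N_12 in red left of DMSO in blue. The genes run from TGFB1 at 34.8 to 40.1 down to TGFB2 at 0.0190 to 0.121.

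Upstream sequence is shown for the 3 members with an unadjusted p under 0.05, to let their promoters be read side by side. RefSeq promoter windows (GRCh38.p14) were matched for all 9 genes, 26 windows in all, since several genes have more than 1 start. The 250 bases before the start were searched on both strands for GTCTAGAC and CAGAC, both known as SMAD-binding letters, TGANTCA, bound by AP-1, TGACGTCA, the cAMP response element, and ACGTG, the core of the hypoxia response element. CAGAC is not contained in GTCTAGAC, and matches of ACGTG on both strands overlap each other in CACGTG. Each line is the first listed window of the gene that held a match, 5′ to 3′ on the gene's strand, with matches in capitals.
GADD45B, chr19:2475877-2476126, strand +: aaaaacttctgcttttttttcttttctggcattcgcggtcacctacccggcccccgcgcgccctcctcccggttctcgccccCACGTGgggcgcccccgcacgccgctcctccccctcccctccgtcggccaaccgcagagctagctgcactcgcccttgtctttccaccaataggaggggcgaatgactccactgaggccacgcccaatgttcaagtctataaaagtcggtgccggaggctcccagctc
PMEPA1, chr20:57710578-57710827, strand -: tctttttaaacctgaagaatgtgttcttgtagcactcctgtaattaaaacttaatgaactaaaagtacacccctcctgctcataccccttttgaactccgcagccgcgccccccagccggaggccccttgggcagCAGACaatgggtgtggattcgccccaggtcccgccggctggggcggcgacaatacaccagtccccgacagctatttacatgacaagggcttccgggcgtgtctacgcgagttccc
SMAD7, chr18:48950966-48951215, strand -: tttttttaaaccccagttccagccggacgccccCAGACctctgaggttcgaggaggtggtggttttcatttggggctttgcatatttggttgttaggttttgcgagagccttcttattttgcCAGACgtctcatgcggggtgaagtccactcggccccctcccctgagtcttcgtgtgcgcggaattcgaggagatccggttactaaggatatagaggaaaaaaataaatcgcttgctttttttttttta
GADD45B held CACGTG, that is ACGTG on both strands, 168 to 163 bases before the start, and none of the other motifs. The PMEPA1 window held CAGAC once and that of SMAD7 held it at 2 places. Over the 26 windows of the 9 genes GTCTAGAC was in 0, CAGAC in 12, TGANTCA in 1 (SMAD3), TGACGTCA in 1 (SKIL) and ACGTG in 8. Of the 26 windows 8 are those of TGFBR1, and some of these overlap, so that a match can be counted more than once. Over all 35116 windows of the table the shares were 0.182% for GTCTAGAC, 38.0% for CAGAC, 6.57% for TGANTCA, 1.65% for TGACGTCA and 18.5% for ACGTG. These are matches of letters, not measured binding sites.

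Beyond the 9 genes, 105 further genes of the pathway were listed by role, and 92 of them passed the expression filter. Of these 5 were called lower and 1 higher, against 1.43% and 0.822% of all tested genes, and the median log2 fold change was -0.07. Of these 6 calls by edgeR, limma-voom and edgeR without robust estimation each kept that of SOX4 alone (adjusted p from 0.0513 to 0.0848 for the other 5). DESeq2 kept all 6. The genes called lower were SOX4, BHLHE40, JUNB and KLF10, transcription factor genes that TGF-beta induces in many cells, and THBS1, a matrix glycoprotein that activates latent TGF-beta and is itself a target. The gene called higher was TGIF1, a repressor that binds SMAD2 and SMAD3. JUNB and KLF10 are also induced by growth factors and BHLHE40 by low oxygen. The exons of JUNB lie opposite those of HOOK2 over 14.2% of their bases and those of THBS1 opposite other genes over 7.58%.

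**Figure D4:**
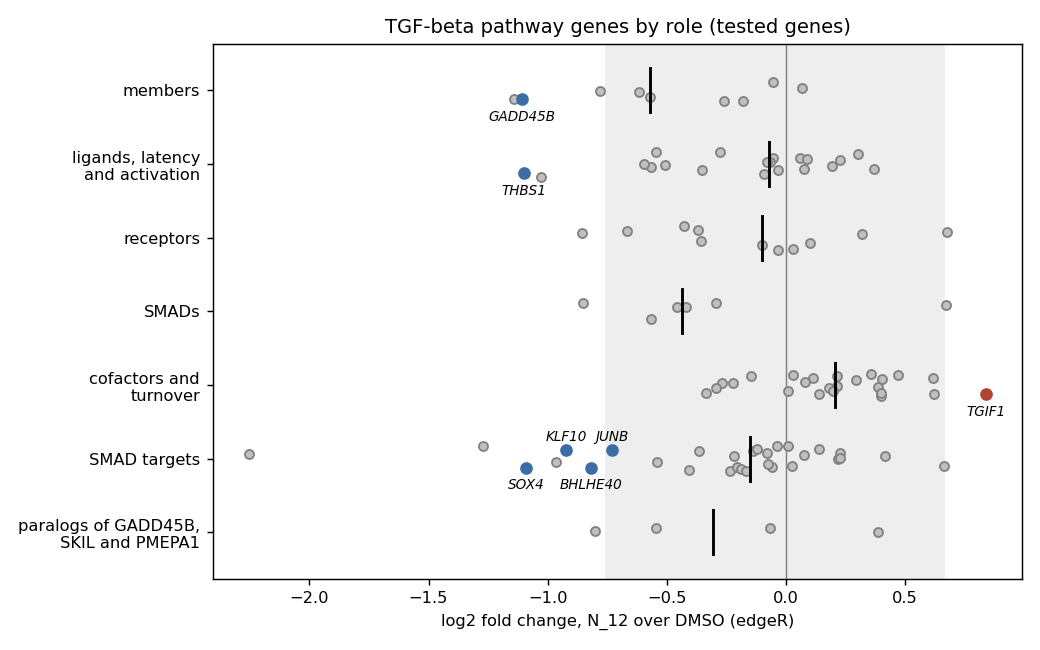
Log2 fold change of N_12 over DMSO of the tested genes in each role (dots, blue where called lower, red where called higher), with black bars at the medians and the range of the middle 90% of all tested genes shaded (-0.75 to 0.66). Genes called lower are in the rows of members, ligands and activation, and SMAD targets; TGIF1 is called higher among the cofactors.

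Of 30 tested SMAD targets 4 were called lower and 0 higher, against 1.43% and 0.822% of all tested genes. Their median log2 fold change was -0.15, against 0.01 over all tested genes. By edgeR 9 were lower and 2 higher at an unadjusted p under 0.05, against 10.8% and 11% of all tested genes. SOX4, a factor of progenitor cells and EMT, had 47.9 and 41.3 CPM in the N_12 libraries and 97.7 and 92.2 CPM in the DMSO libraries (log2 fold change -1.09, SE 0.15, adjusted p = 0.0174). JUNB, an AP-1 subunit, had 298 and 297 CPM in the N_12 libraries and 535 and 451 CPM in the DMSO libraries (-0.73, SE 0.14, adjusted p = 0.0413). Both N_12 libraries were well below for each. BHLHE40, a repressor of the circadian and hypoxia responses, fell by 0.82 on the log2 scale (SE 0.13, adjusted p = 0.0269) and KLF10, first described as a gene induced early by TGF-beta, by 0.92 (SE 0.18, adjusted p = 0.0485). CCN2, a matricellular growth factor, had 2.14 and 2.89 CPM in the N_12 libraries and 7.12 and 5.03 CPM in the DMSO libraries, the groups apart but not called by edgeR (-1.27, adjusted p = 0.0569). It was called by DESeq2 (adjusted p = 0.0106) and by edgeR without DMSO replicate 2 (adjusted p = 0.0206). ID1, the main target of the BMP branch, overlapped between groups (log2 fold change 0.08, -0.25 to 0.41), and TGFBI had 0 counts in every library. Without DMSO replicate 1 SOX4 was the one target of these 4 still called, and without DMSO replicate 2 KLF10 was not (adjusted p = 0.0571).

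Among 20 tested genes of ligands, latency and activation 1 was called lower and 0 higher, against 1.43% and 0.822% of all tested genes. By edgeR 2 were lower and 0 higher at an unadjusted p under 0.05, against 10.8% and 11% of all tested genes. The gene called was THBS1 (-1.10, SE 0.21, adjusted p = 0.0464). It had 11.2 and 16.4 CPM in the N_12 libraries and 31.2 and 27.9 CPM in the DMSO libraries. Leaving out DMSO replicate 1 ended that call (adjusted p = 0.0922), and the calls of THBS1 and KLF10 were also lost with scaling by total counts alone (adjusted p = 0.0545 and 0.0575) and with correction for GC content and length (adjusted p = 0.052 and 0.0596). LRRC32, which anchors latent TGF-beta on the cell surface, averaged 1.25 ± 0.107 CPM with N_12 and 2.56 ± 0.231 CPM with DMSO, not called (adjusted p = 0.0994). The BMP antagonist NOG had a log2 fold change of -0.51 (adjusted p = 0.246). Of 11 further receptors edgeR called 0, against 2.25% of all tested genes. At an unadjusted p under 0.05, 3 were lower and 0 higher, against 10.8% and 11% of all tested genes. DESeq2 called ACVR1C and BAMBI lower, beside 8.68% of all tested genes called in either direction. Among the 11 the lowest p by edgeR was that of ACVR1C, the nodal receptor ALK7 (-0.86, SE 0.21, adjusted p = 0.0758). ACVR1C was called by DESeq2 (adjusted p = 0.00982) and by edgeR with correction for GC content and length (adjusted p = 0.033). The activin receptor ACVR2A differed by -0.43 (adjusted p = 0.266). ACVR1B, the activin type I receptor, had 50.3 and 20.4 CPM in the N_12 libraries and 19.3 and 50.1 CPM in the DMSO libraries, so that its libraries differed more within each group than between them.

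Of 24 cofactors and turnover genes 1 was called higher and 0 lower, against 0.822% and 1.43% of all tested genes. Their median log2 fold change was 0.21, with 19 of the 24 above 0, against 7190 of all 14105 tested genes. By edgeR 7 were higher and 0 lower at an unadjusted p under 0.05, against 11% and 10.8% of all tested genes. TGIF1 had 147 and 133 CPM in the N_12 libraries and 80.3 and 76.5 CPM in the DMSO libraries (log2 fold change 0.84, SE 0.13, adjusted p = 0.0257). Its libraries were clearly apart, although leaving out DMSO replicate 1 or 2 ended the call (adjusted p = 0.0617 and 0.0635), and so did limma-voom and edgeR without robust estimation (adjusted p = 0.0513 and 0.0532). The acetyltransferases CREBBP and EP300, coactivators of SMAD complexes, had log2 fold changes of 0.61 and 0.40 (adjusted p = 0.121 and 0.146), and the ubiquitin ligase SMURF2, which SMAD7 brings to the receptor, of 0.40 (adjusted p = 0.165). EdgeR called none of these 3, and DESeq2 called CREBBP (adjusted p = 0.0495).

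The libraries carried epithelial markers, with EPCAM, KRT8, KRT18, KRT19, CDH1, CLDN4 and CLDN7 all tested and the summed level of the 8 listed markers between 3477 and 4118 CPM with N_12 and between 4178 and 5162 CPM with DMSO. VIL1, the 8th, had at most 4 counts in any library. Of 8 fibroblast markers COL1A2, DCN and LUM were at 0 in every library, while COL1A1 averaged 57.5 ± 3.47 CPM with N_12 and 62.6 ± 2.59 CPM with DMSO. Of 6 leukocyte markers PTPRC and CD3E were at 0, while CD68 averaged 45.0 ± 4.60 CPM with N_12 and 37.9 ± 4.62 CPM with DMSO. Of the exon bases of CD68 81.7% are shared with AC016876.2 on the same strand. The 5 endothelial markers summed to at most 2.53 CPM. None of the 27 markers was called, but only 7 epithelial, 1 fibroblast, 2 leukocyte and 2 endothelial markers were tested. By edgeR, EPCAM, KRT8, CDH1 and CLDN7 were lower with N_12 at an unadjusted p under 0.05, against 10.8% of all tested genes. Their log2 fold changes were -0.42, -0.36, -0.52 and -0.48, without overlap (adjusted p = 0.152, 0.181, 0.151 and 0.134). KRT19 differed by -0.32 and KRT18 by 0.01 (adjusted p = 0.231 and 0.961). No marker was higher at that level. CLDN4 had 70.6 and 376 CPM in the N_12 libraries and 458 and 24.3 CPM in the DMSO libraries. It thus differed within each group, as did ACVR1B, but with the high and low replicates exchanged. The part of the epithelial sum, which was lower with N_12, in the results above was not tested. In all, edgeR called 317 of the 14105 tested genes (2.25%).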

How the data were processed

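Each library started from 1.4 ug of total HCT116 RNA, with 2 libraries per group, per the labels' protocols. The authors deposited raw counts, 1 whole number per gene and library. No source used here names the aligner, the counting tool or its strand setting. GRCm38 and mm10, both mouse builds, are named in the submitters' processing notes although the identifiers are human, so positions come from RefSeq and GENCODE. Symbols were matched for 20148 of 20263 identifiers.

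R 4.3.3 and edgeR 4.0.16 were used with TMM scaling, edgeR's expression filter and robust quasi-likelihood fits without a replicate term. Adjustment was by Benjamini-Hochberg over all tested genes, two-sided. CPM values use TMM-scaled totals. Standard errors and 95% intervals were computed from each log2 fold change and its F value. Alternatives were limma 3.58.1 (voom), DESeq2 1.42.0, other scalings and filters, a replicate term, a correction for GC content and length (GENCODE release 29) and leaving out each library. The scripts were tested on simulated data. Chi-square per degree of freedom between replicates was 52.1 for N_12 and 33.1 for DMSO, above sampling noise, so all 4 libraries were counted.

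The members and lists were chosen with earlier results of these data known. Named genes were the 9 members, 17 set partners and outputs (1 more is not reported here), other listed pathway genes that were called, up to 3 genes per list by smallest p, and the 3 genes nearest to the member with the smallest p. Markers were named apart from this rule, CLDN4 after its values were seen.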

Additional observations from a re-analysis of the deposited data

How the results depend on the processing

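Of the 9 members, 1 was called in the main setting and 2 with the stricter filter, with DESeq2 and without DMSO replicate 1, where SKIL was the second; with the filter (5 CPM in 2 libraries) and DESeq2 it was PMEPA1 (adjusted p = 0.0327 and 0.0147). PMEPA1 passed that filter only through its DMSO libraries, and TGFB2 did not pass it. Leaving out 1 library gave 0 to 2 called members, 0 to 6 other pathway genes and 0 to 451 genes in all. The 0 calls, by edgeR without N_12 replicate 1 or 2, stood beside 2855 and 2763 genes with an unadjusted p under 0.05; a lone N_12 library is there assumed to vary like the DMSO libraries. For the other pathway genes 6 were called in the main setting, 1 with limma-voom, 1 without robust estimation (SOX4 in both) and 15 with DESeq2. Over all genes the counts were 317 in the main setting, 131 with limma-voom, 131 without robust estimation, 1225 with DESeq2 and 903 with GC and length correction. GADD45B was called by each of these.

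Same-numbered libraries share only a number, and their deviations from the group means ran against each other (correlation across genes -0.11). The replicate block called 2 members (GADD45B and PMEPA1), 11 other pathway genes and 963 genes (6.83% of those tested). A crossed replicate block (DMSO replicate 1 with N_12 replicate 2), chosen after seeing the data, called 0 members, 0 other pathway genes and 28 genes (0.199%), with GADD45B at an adjusted p of 0.0716, while 3 members had an unadjusted p under 0.05.

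The sign turned only for values near 0 or from few counts, always when 1 library was left out. Leaving out 1 library took TGFB2 from -2.32 to 0.19, TGFBR1 from -0.21 to 0.064, TGFBR2 from -0.010 to 0.15, TGFB3 from -0.15 to 0.013, ACVR1B from -0.79 to 0.88, ID1 from -0.037 to 0.20 and GADD45A from -0.20 to 0.082. The cause was not tested. Of 125 alternative values for members 114 kept direction and side of the threshold, and of 386 for other named genes 327 did. Most of these genes were not called in the main setting, and for them staying uncalled with the same sign was enough. The shares therefore do not measure how stable the calls were. A call was lost in 3 values for members, all of GADD45B, and in 39 for other named genes, all of the 6 called ones. Depth limits TGFB2 and GADD45G, with at most 24 counts in any library.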
